A study of Mus musculus with 6 samples.

Results

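The genes described here are 6 of the STAT transcription factor genes, Stat2, Stat3, Stat4, Stat5a, Stat5b and Stat6, taken by symbol from a count matrix of 24421 genes in mouse regulatory T (Treg) cells. Treg cells were sorted as CD4+YFP+ splenocytes from female C57BL/6 mice aged 8 to 11 weeks and were sequenced without treatment, in 3 WT libraries (Foxp3Cre) and 3 KO libraries (Foxp3Cre miR-142fl/fl). In both genotypes the Foxp3 locus itself drives a YFP-tagged Cre, so that the control cells also express Cre, and the floxed miR-142 gene is lost in cells that have expressed Foxp3. The deletion reaches all Foxp3+ cells of a KO mouse, and a change within the Treg cell cannot be told apart here from a response to its surroundings. The comparison asks how the loss of this microRNA alters Treg cell transcripts.

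STAT proteins carry the signal of cytokine receptors into the nucleus. A cytokine brings its receptor chains together, the Janus kinases bound to those chains phosphorylate them, a STAT docks there and is phosphorylated in turn, and pairs of STATs then enter the nucleus and bind DNA. STAT5A and STAT5B act below the IL-2 receptor and sustain Foxp3 in Treg cells, STAT3 acts below IL-6, IL-10 and IL-21, STAT4 below IL-12, STAT6 below IL-4, and STAT2 with IRF9 below the type I interferon receptor. RNA-seq measures the transcripts of these genes and not the phosphorylation on which their activity rests.

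The deleted gene gives rise to a pair of mature microRNAs, named miR-142a in the mouse reference. They are shown because a match to the seed, bases 2 to 8 and printed in capitals, is what the 3′ UTRs of the STAT genes were searched for (RefSeq, GRCm38.p6; chr11:87756903-87756925 and chr11:87756867-87756887, plus strand).
mmu-miR-142a-3p: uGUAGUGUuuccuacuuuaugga
mmu-miR-142a-5p: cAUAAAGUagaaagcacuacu
No match to the miR-142a-3p seed, nor to that of the form starting 1 base later, was found in the longest annotated 3′ UTR of any of the 6 genes, counting either kind of 7-base site. Stat3 and Stat5a each held 1 site of 7 bases for miR-142a-5p. The Stat3 site matches bases 2 to 8, whereas the Stat5a site matches bases 2 to 7 and is followed by an A, so that it lacks the last base of the seed. Neither was of the 8-base kind that joins both features. The sites are printed on the strand of the gene with 10 bases on either side and the match in capitals. The Stat3 site was in exon 24 at chr11:100885135-100885141 (minus strand), at base 3658 of a 3′ UTR of 3701 bases, and the Stat5a site was in exon 20 at chr11:100884397-100884403 (plus strand), at base 401 of 1173.
Stat3: accaacaaaaACTTTATtcaaaaacac
Stat5a: cttagtgaccCTTTATAcctttgtgta
Among 10773 tested genes with an annotated 3′ UTR, whose median length was 1377 bases, 24.0% held a miR-142a-5p site of either kind, 13.5% a miR-142a-3p match and 16.2% a match to the later-starting 3p form. The 3′ UTRs of Stat4, Stat6, Stat2 and Stat5b, at 253, 976, 1476 and 2365 bases, held no match to any of these seeds. A match is a description of the sequence and was not tested as a site of regulation.

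The 6 genes lie on 3 chromosomes (GENCODE vM21, GRCm38). Stat5b (chr11:100780731-100850724, minus strand), Stat5a (chr11:100859351-100885169, plus strand) and Stat3 (chr11:100885098-100939540, minus strand) form a cluster. Stat5b and Stat5a start 8626 bases apart and are read away from each other. Stat5a and Stat3 end in each other, with 72 bases of exon shared on opposite strands, and the seed match of Stat3 lies inside those bases. Stat6 (chr10:127642986-127660957) and Stat2 (chr10:128270559-128292849) are 610 kb apart on the plus strand, and Stat4 (chr1:51987148-52107189, plus strand) stands alone. Because reads were counted without strand, reads in the 72 shared bases, 0.756% of the exon bases of Stat3 and 1.01% of those of Stat5a, cannot be assigned to either gene. Of all 51-base stretches of transcript, the length of a read, 8.36% of those of Stat5a and 10.8% of those of Stat5b also occur in another gene, nearly all in the other paralog. For Stat4 the share was 21.6%, all with Gm28177, a gene model on the same strand that has no row in the matrix. How reads with several matches were counted is not given in the sources used here.

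Promoters of these genes were read because STATs are known to act on promoters, their own included. In 9 RefSeq promoter windows of the 6 genes (250 bases before to 50 after a start, GRCm38.p6), the letters TTCNNNGAA, the spaced palindrome bound by most STAT pairs, did not occur. They occur in 8.30% of 32851 windows of the annotation. The letters GAAA, any 2 bases and again GAAA, the core of the element bound by STAT2 with IRF9, occurred on either strand in 2 of the 9 windows and in 3.44% of all windows. The windows were that of Stat2 (chr10:128270248-128270547) and the downstream start of Stat4 (chr1:52007990-52008289), with the match beginning at positions -222 and -97 from the start. The matches are given in capitals with 10 bases of flank.
Stat2: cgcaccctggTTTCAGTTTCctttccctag
Stat4: aatgtcttcaGAAAGTGAAAtttagaacgg

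The libraries held between 13883069 and 24042994 counts, and the 6 genes between 1551 and 10040 counts each, so that counting error was at most 2.54% of a value. Treg identity was supported by Foxp3 (536 to 749 CPM, the read count scaled to the size of the library), Cd4 (833 to 1040 CPM) and Ikzf2 (1240 to 1610 CPM) in every library. Mir142b, a gene model that spans the deleted miR-142 hairpin on the opposite strand, had 147, 101 and 105 counts in WT and 7, 5 and 5 in KO libraries, in the direction of the labels. KO replicate 1 stood apart from the other libraries by transcripts of other cell types. Its 12 monocyte and macrophage markers summed to 2920 CPM, against 8.13 to 11.8 CPM in WT and 19.6 to 80.2 CPM in the other KO libraries, with 12 of 12 highest in that library. The corresponding sums were 1040 CPM against 4.37 to 5.91 and 16.8 to 49.5 CPM for neutrophils, 320 CPM against 30.6 to 41.8 and 9.39 to 13.1 CPM for B cells, and 154 CPM against 2.99 to 4.04 and 5.75 to 6.71 CPM for dendritic cells. CD8 and NK cell markers summed to 82.5 CPM in KO replicate 1, 45.9 to 56.4 CPM in the other KO libraries and 20.2 to 24.5 CPM in WT. Erythroid markers summed to 17.5, 4.38 to 13.8 and 0.774 to 1.27 CPM. The part of these transcripts in the results below was not tested beyond leaving the library out. In bulk RNA a change in the share of cells that express a gene cannot be told apart from a change per cell.

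All 6 STAT genes passed the expression filter and lay among the upper transcripts, at the 85.3 to 97.3 percentile of mean CPM over 11658 tested genes. In the KO, Stat4 fell and Stat3 rose at a false discovery rate (FDR) below 0.05 in edgeR's quasi-likelihood test, and the remaining 4 genes were not called. Over all tested genes 18.8% were called, 11.6% higher and 7.27% lower in KO, with 1350 genes higher and 847 lower. With library size alone as the scaling this balance turned, to 1064 higher and 1201 lower. The 2 of 6 called is a count on 6 genes and not a share to be set apart from that background. The WT and KO libraries did not overlap for 4 of the 6 genes, against 41.0% of all tested genes. The median log2 fold change was -0.19 over the STAT genes and 0.02 over all genes.

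**Figure D1:**
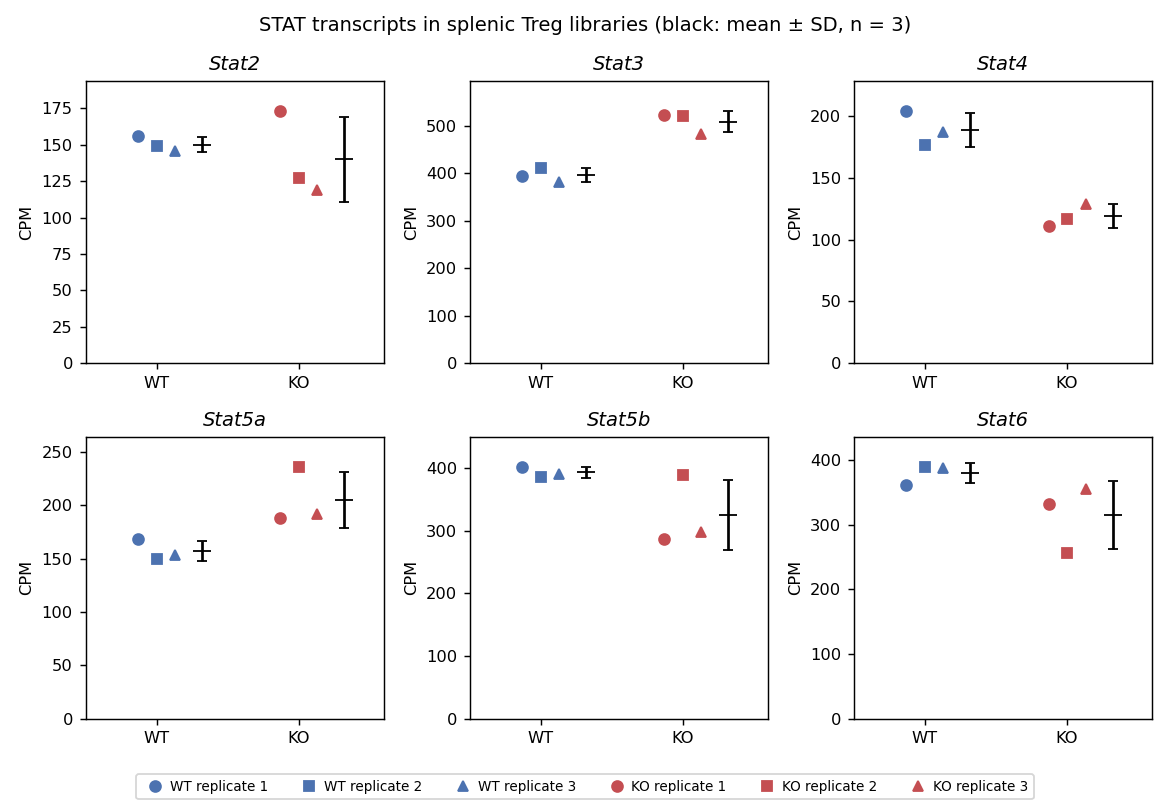
TMM-normalised CPM (y axis, from 0) of each STAT gene in the 3 WT and 3 KO libraries, with the mean ± SD in black. The KO libraries of Stat4 (111 to 129 CPM) sit below all WT libraries, those of Stat3 (484 to 523 CPM) and Stat5a (188 to 236 CPM) above them, and the KO points of Stat2, Stat5b and Stat6 are more scattered than the WT points.

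Stat4, through which IL-12 drives the type 1 helper programme, showed the largest difference of the 6. Its level was 204, 177 and 187 CPM in the WT libraries and 111, 117 and 129 CPM in the KO libraries. Every KO library was below every WT library. The means were 189 ± 13.6 and 119 ± 9.6 CPM (SD, n = 3 per group), a 1.59-fold decrease in KO (log2 fold change -0.67 ± 0.10 SE, 95% CI -0.89 to -0.44, FDR 0.00508). The call was kept without any 1 of the 6 libraries (log2 fold change -0.75 to -0.63, FDR 0.00622 to 0.0277). Without KO replicate 1, the library with the foreign transcripts, it was -0.63.

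Stat3, the STAT of IL-6 and IL-10 receptors, was at 394, 412 and 382 CPM in WT and at 523, 521 and 484 CPM in KO libraries. The groups did not overlap, and the means of 396 ± 14.7 and 509 ± 22.1 CPM (SD, n = 3) differed by 1.29-fold (log2 fold change 0.36 ± 0.08 SE, 95% CI 0.17 to 0.56, FDR 0.0252). The direction held in each fit with 1 library left out (0.33 to 0.39), while the call did not. FDR was 0.0981, 0.0892 and 0.115 without WT replicates 1, 2 and 3, 0.0584 without KO replicate 1, 0.0534 without KO replicate 3, and 0.0350 without KO replicate 2.

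Stat5a and Stat5b encode near-identical proteins that both transmit IL-2 signals. Stat5a was at 168, 150 and 153 CPM in WT and at 188, 236 and 192 CPM in KO libraries, again without overlap. The difference between means of 157 ± 9.38 and 205 ± 26.5 CPM (SD, n = 3) fell just outside the threshold (log2 fold change 0.39 ± 0.11 SE, 95% CI 0.13 to 0.65, FDR 0.0507). It was called without KO replicate 1 (0.43, FDR 0.0403) and by DESeq2 (FDR 0.0143). Stat5b was at 402, 386 and 390 CPM in WT and at 287, 389 and 298 CPM in KO libraries. KO replicate 2 lay within the WT range and the other KO libraries lay below it. The means were 393 ± 8.25 and 325 ± 56.2 CPM (SD, n = 3; log2 fold change -0.27 ± 0.13 SE, 95% CI -0.57 to 0.03, FDR 0.176). Without KO replicate 2 the value was -0.42 at an FDR of 0.0170.

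KO replicate 2 had the highest Stat5a as well as the highest Stat5b of the KO libraries, and the balance of the paralogs was also read within each library. There were 2.39, 2.57 and 2.54 Stat5b counts for each Stat5a count in the WT libraries and 1.52, 1.65 and 1.55 in the KO libraries. The ratio was thus lower in all 3 KO libraries, with means of 2.50 ± 0.0941 and 1.58 ± 0.0663 (SD, n = 3). The log2 ratio of Stat5a to Stat5b differed by 0.67 between groups (exact two-sided permutation p = 0.1, the smallest that 3 against 3 libraries allow), and by 0.64 to 0.70 with 1 library left out. This ratio does not depend on how libraries are scaled. The shift was not particular to the paralogs, since the log2 ratio of Stat5a to Stat6 differed by 0.66 and those of Stat3 to Stat5b and to Stat6 by 0.65 each, also without overlap. The log2 ratio of Stat4 to Stat5a differed by more, at -1.05, as did that of Stat3 to Stat4, at 1.03. In all, the groups did not overlap for 10 of the 15 pairs of STAT genes. These pairs reuse the same genes, most of which already did not overlap between WT and KO on their own. The share over pairs of all genes was not computed, so the count is not set apart from a background. Among the 15 pairs of STAT genes, Stat3 to Stat4 was picked after its values were seen and is given as a description, with 1.93, 2.32 and 2.04 Stat3 counts per Stat4 count in WT and 4.73, 4.44 and 3.74 in KO libraries.

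**Figure D2:**
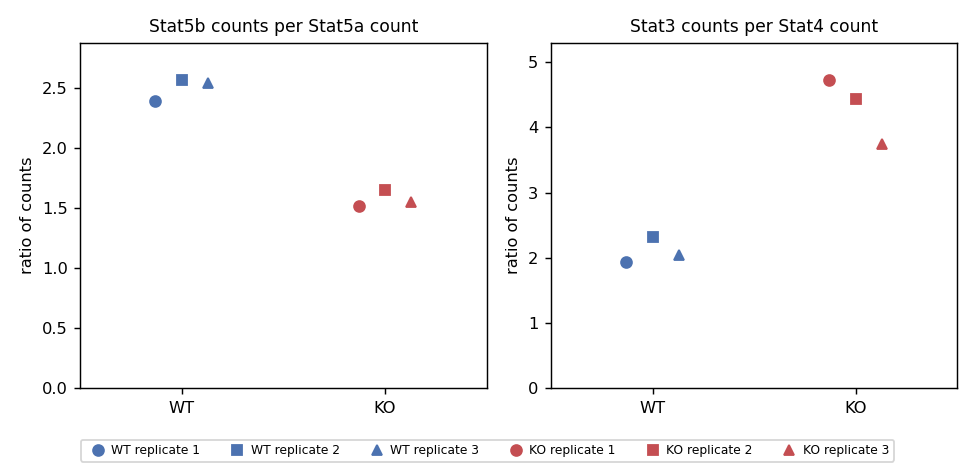
Ratio of raw counts within each library (y axes, from 0) for Stat5b over Stat5a, left, and Stat3 over Stat4, right, in WT and KO. The KO libraries have 1.52 to 1.65 Stat5b counts per Stat5a count against 2.39 to 2.57 in WT, and 3.74 to 4.73 Stat3 counts per Stat4 count against 1.93 to 2.32.

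Stat6, which carries IL-4 and IL-13 signals, was at 362, 390 and 388 CPM in WT and at 332, 256 and 356 CPM in KO libraries. All KO values were below the WT values, but the KO libraries differed among themselves by more than the gap between groups. The means were 380 ± 15.4 and 315 ± 52.3 CPM (SD, n = 3; log2 fold change -0.27 ± 0.13 SE, 95% CI -0.58 to 0.04, FDR 0.189), and no fit with 1 library left out called the gene (FDR 0.114 to 0.381). The value was -0.14 without KO replicate 2 and -0.39 without KO replicate 3.

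Stat2, the interferon STAT that pairs with IRF9, was at 156, 149 and 146 CPM in WT and at 173, 127 and 119 CPM in KO libraries. KO replicate 1 was the highest of all 6 libraries and the other KO libraries were the lowest. The means were 150 ± 5.12 and 140 ± 29.1 CPM (SD, n = 3; log2 fold change -0.10 ± 0.14 SE, 95% CI -0.44 to 0.23, FDR 0.649). Without KO replicate 1, in which myeloid and B cell markers were highest, the value was -0.30 at an FDR of 0.0568, and it was -0.03 without KO replicate 2 and -0.02 without KO replicate 3. The part of those cells in the Stat2 level was not tested otherwise.

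**Figure D3:**
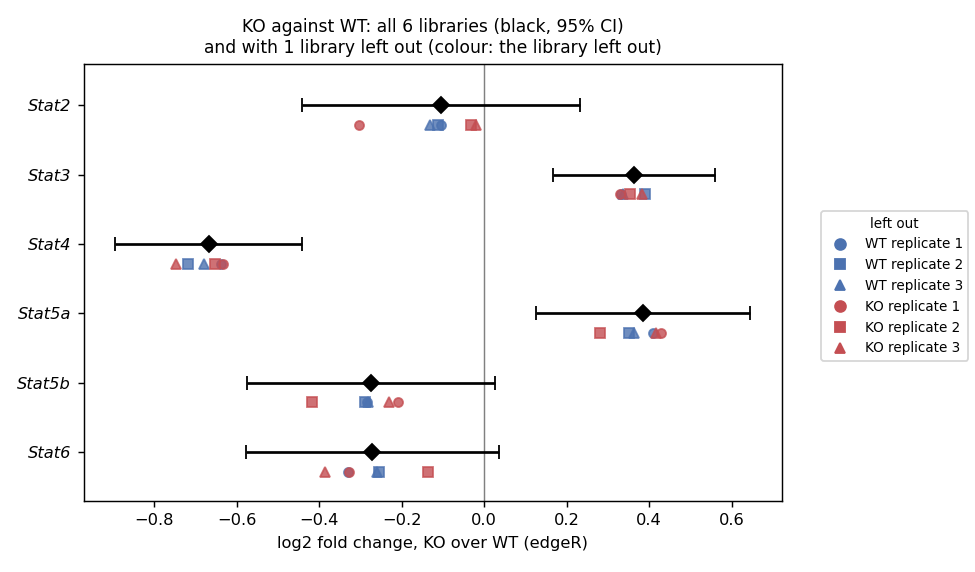
Log2 fold change of KO over WT for each STAT gene (x axis; black diamond and bar, all 6 libraries with the 95% confidence interval; coloured points, the value with 1 library left out, coloured and shaped by that library). The Stat4 points stay between -0.75 and -0.63, whereas the Stat2 value moves from -0.10 to -0.30 without KO replicate 1 and to -0.02 without KO replicate 3, and the Stat5b value from -0.27 to -0.42 without KO replicate 2.

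Relative to the mean, the KO libraries varied more among themselves than the WT libraries, and little more for Stat3 and Stat4. The coefficient of variation in KO was 20.8% for Stat2, 17.3% for Stat5b, 16.6% for Stat6 and 12.9% for Stat5a, and 2.10% to 5.97% for these genes in WT. For Stat3 and Stat4, the called genes, it was 4.33% and 8.05% in KO and 3.71% and 7.17% in WT, and the SD of Stat4 was larger in WT.

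Levels were compared between genes as CPM per kb of annotated exon. In WT cells Stat6 was highest at 86.3 ± 3.49 CPM per kb, followed by Stat5b at 70.9 ± 1.49, Stat4 at 48.9 ± 3.51, Stat3 at 41.6 ± 1.54, Stat2 at 25.3 ± 0.864 and Stat5a at 22.0 ± 1.31 CPM per kb (SD, n = 3). No neighbours in that order overlapped between libraries. In KO cells Stat6 (71.5 ± 11.9) and Stat5b (58.6 ± 10.1) overlapped each other, Stat5b overlapped Stat3 (53.5 ± 2.31), and Stat4 (30.8 ± 2.48), Stat5a (28.8 ± 3.71) and Stat2 (23.6 ± 4.90) overlapped as neighbours. Only Stat3 and Stat4 were separate in the KO order, with Stat3 above Stat4 in 3 of 3 libraries, the reverse of their order in WT. The order depends on the length used. Per kb of the longest transcript Stat3 (65.5 ± 2.43) and Stat4 (63.5 ± 4.55) overlapped in WT, and Stat5a (39.7 ± 2.37) was above Stat2 (34.2 ± 1.17). By that length Stat3 (84.3 ± 3.65) was level with Stat6 (83.4 ± 13.9) and above Stat5b (62.3 ± 10.8) in KO. The sum of the 6 levels per kb of exon was 299, 294 and 293 in WT and 266, 268 and 266 in KO libraries. Stat3 made up 14.1% ± 0.555 of that sum in WT and 20.0% ± 0.830 in KO, Stat4 16.6% ± 1.03 and 11.5% ± 0.942, and Stat5a 7.47% ± 0.367 and 10.8% ± 1.35 (SD, n = 3).

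**Figure D4:**
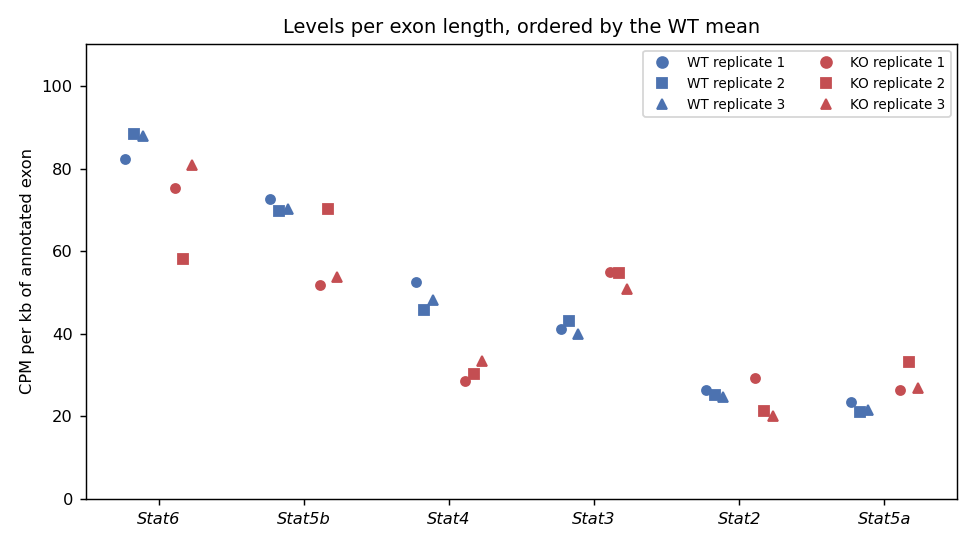
CPM per kb of annotated exon (y axis, from 0) for the 6 STAT genes, ordered by the WT mean, with 1 point per library. WT libraries fall in separate steps from Stat6 (86.3 on average) to Stat5a (22.0), and in KO libraries Stat3 lies above Stat4.

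The genes around the STATs were followed in 9 lists of receptors, kinases, inhibitors, partners and textbook target genes, of which 109 of 118 genes were tested, 28 (25.7%) were higher and 4 (3.67%) lower in KO. Each count stands beside the 11.6% higher and 7.27% lower over all tested genes, and no share was tested, since the lists were chosen with results known. In the fits without 1 library the share of all genes called higher was itself lower, at 5.78%, 4.18% and 4.81% without WT replicates 1, 2 and 3, 9.69% without KO replicate 1 and 7.62% without KO replicate 3, and it was 12.3% without KO replicate 2. Of 21 tested receptor chains 10 (47.6%) were higher and 1 lower (median log2 fold change 0.43). The number higher was 4 without WT replicate 1 or 2, 6 without WT replicate 3 and 11 without KO replicate 1, to be read beside those shares. Il2ra, the high-affinity chain of the IL-2 receptor, was at 799, 744 and 726 CPM in WT and 2260, 2400 and 3070 CPM in KO libraries (log2 fold change 1.77, FDR 8.80e-04). Il2rb, the signalling chain to which STAT5 is recruited, was at 1030, 1010 and 1040 CPM in WT and 2090, 2100 and 2100 CPM in KO libraries (1.03, FDR 9.96e-04). The receptor below which STAT4 acts changed against Stat4 itself. Il12rb1 increased (1.49, FDR 0.00741), and Il12rb2, low in WT at 1.54, 1.48 and 1.55 CPM, was at 30.5, 5.38 and 5.61 CPM in KO libraries (3.19, FDR 0.0249). The Il12rb2 value was 1.83 without KO replicate 1 (FDR 0.00214), and its call was lost without any 1 WT replicate (FDR up to 0.103). Il6ra, the ligand-binding chain of the IL-6 receptor, which signals through STAT3, fell from 287, 288 and 339 CPM to 94.1, 138 and 120 CPM (-1.38, FDR 0.00219) and did so in all 6 fits with 1 library left out. Il23r, Lifr and Osmr did not exceed 1 CPM in 3 libraries and were not tested. Lifr was at 7.72 CPM in KO replicate 1, the library with the foreign transcripts, and at most at 0.342 CPM in any other library. Osmr was at 1.22 CPM in KO replicate 1 and at most at 0.616 CPM in any other.

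None of the 4 Janus kinases was called by edgeR, nor at an unadjusted p below 0.05, nor by DESeq2. Of all genes, 19.7% were higher and 15.1% lower at that unadjusted p, and 14.4% and 10.3% by DESeq2. A count of 0 on 4 genes is not a share to be set apart from that background. Jak1 was at 1220 and 1130 CPM, Jak3 at 416 and 434 CPM, Jak2 at 320 and 361 CPM and Tyk2 at 224 and 192 CPM in WT and KO on average. The 5 partners and coactivators, among them Irf9 (194 and 173 CPM), gave 0 calls in the same tests (median log2 fold change -0.11). Without KO replicate 2, 1 of the 5 was lower, where 8.19% of all genes were lower. These counts on 5 genes are likewise not set apart from the shares over all genes.

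Of 20 inhibitors 5 (25.0%) were higher and 1 (5%) lower (median log2 fold change 0.05). Socs2, at 35.8, 38.2 and 42.8 CPM in WT, was at 219, 267 and 189 CPM in KO libraries (2.53, FDR 3.93e-04). Socs3, the feedback inhibitor of IL-6 signalling, was at 194, 204 and 208 CPM and 414, 405 and 456 CPM (1.07, FDR 8.80e-04). Cish, a feedback inhibitor of IL-2 signalling, was at 240, 194 and 271 CPM and 463, 499 and 451 CPM (means 235 ± 38.8 and 471 ± 24.7 CPM, SD, n = 3, FDR 0.00394). Each of these 3 was called in all 6 fits with 1 library left out. Ptpn1, a phosphatase, rose by 0.69 (FDR 0.00304), a call kept in all 6 fits with 1 library left out. Socs1 rose by 0.55 (FDR 0.0486), a call lost without WT replicate 1, 2 or 3 (FDR 0.0577, 0.175 and 0.160) and without KO replicate 1 or 3 (FDR 0.0871 and 0.116). Usp18, which restrains the interferon receptor, fell by 0.56 (FDR 0.0445), a call lost without any 1 WT replicate or without KO replicate 3 (FDR up to 0.147). The PIAS genes and the remaining SOCS genes were not called.

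The target lists are textbook selections and the binding of STATs to these genes was not measured. Genes in several lists are counted in each, so the target counts are not separate from those of receptors and inhibitors. Of the called genes, Il2ra, Il2rb, Il12rb2, Il4ra, Cish, Socs2, Socs3 and Usp18 stand in a target list and in the receptor or inhibitor list. Among 16 tested STAT5 targets 9 (56.2%) were higher and 0 lower (median log2 fold change 0.62), with 5 higher without WT replicate 2 or 3, where 4.18% and 4.81% of all genes were higher. An unadjusted p below 0.05 gave 11 higher and 0 lower, where 19.7% of all genes were higher and 15.1% lower. DESeq2 gave 10 higher and 0 lower, where 14.4% of all genes were higher and 10.3% lower. Il2ra and Socs2 led with Gzmb, a cytotoxic granule protease also made by CD8 and NK cells, at 4.87, 6.97 and 6.36 CPM in WT and 120, 28.3 and 46.2 CPM in KO libraries (3.42, FDR 0.00691). Without KO replicate 1 the Gzmb value was 2.59 (FDR 5.05e-04). Foxp3, at 566 ± 29.5 and 689 ± 54.9 CPM (SD, n = 3), was not called (0.28, FDR 0.0830), and Bcl2 was at 476 and 548 CPM (FDR 0.617).

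Of 12 tested STAT3 targets 3 (25.0%) were higher and 1 (8.33%) lower (median 0.13), with 1 higher without WT replicate 2. Beside Socs3 the higher genes were Prdm1, which encodes the transcriptional repressor Blimp-1 (1.13, FDR 0.0280), and Bcl3 (0.89, FDR 0.00877). Both were highest in KO replicate 1, and without that library the values were 0.77 (FDR 0.0211) and 0.72 (FDR 0.00554). Prdm1 was not called without any 1 WT replicate (FDR up to 0.105), and Bcl3 was not called without WT replicate 2 (FDR 0.0527). Bcl6, the factor of follicular T cells and an opponent of Prdm1, fell from 57.1, 75.6 and 69.4 CPM to 33.7, 28.4 and 21.8 CPM (-1.27, FDR 0.00497). Il17a had no counts in any library, and Il17f was under 0.4 CPM in every library.

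Of 10 tested STAT4 targets 4 (40.0%) were higher and 0 lower (median 0.63), while Stat4 itself fell. DESeq2 and an unadjusted p below 0.05 each gave 6 higher and 0 lower, where 14.4% and 19.7% of all genes were higher and 10.3% and 15.1% lower. Without WT replicate 2, 2 were higher, against 4.18% of all genes. Besides Il12rb2 they included Gadd45g, at 9.98, 15.8 and 16.0 CPM in WT and 68.6, 54.7 and 57.1 CPM in KO libraries (2.10, FDR 0.00129), and Furin, a protease that processes cytokines, at 112, 106 and 109 CPM and 191, 215 and 189 CPM (0.87, FDR 0.00138). Tbx21, the master factor of type 1 helper cells, was at 15.8, 15.0 and 16.2 CPM in WT and at 51, 17.1 and 23.3 CPM in KO libraries, highest in KO replicate 1, and was not called (FDR 0.112). Ifng, the signature cytokine of those cells, was at 5.85, 13 and 24.6 CPM in WT and at 15, 5.68 and 4.38 CPM in KO libraries, which overlapped, with a log2 fold change of -0.78 (FDR 0.402).

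Only 4 of 7 STAT6 targets were tested, of which 2 were higher, where 11.6% of all tested genes were higher. A count on 4 genes is not a share to be set apart from that background. Il4 was low, at 1.79, 1.97 and 1.94 CPM in WT and 5.99, 4.24 and 4.65 CPM in KO libraries (1.39, FDR 0.00833). Il4ra, the receptor chain that recruits STAT6, was at 297, 300 and 312 CPM and 378, 425 and 422 CPM (0.43, FDR 0.0159). The Il4ra call was lost without any 1 WT replicate or without KO replicate 3 (FDR up to 0.0836). Gata3 was at 277 and 258 CPM (FDR 0.700).

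The 25 STAT2 targets are genes induced by type I interferon. Of these 2 (8%) were called higher and 2 (8%) lower, shares near those over all genes, and their median log2 fold change was 0.01. Isg20 rose from 33.4, 29.8 and 29.4 CPM to 65.7, 51.1 and 66.3 CPM (0.98, FDR 0.00379) and Zbp1 rose by 0.47 (FDR 0.0229), while Trim30a fell by 0.58 (FDR 0.0358) and so did Usp18. The calls of Zbp1 and Trim30a were kept in 2 of 6 fits with 1 library left out (FDR up to 0.104 and 0.130), and Zbp1 lost its call without any 1 WT replicate or without KO replicate 3. Trim30a lost its call without WT replicate 2 or 3 or KO replicate 2 or 3. In KO replicate 1, the library highest for Stat2, 17 of the 25 genes were highest too. How many of all tested genes were highest in that library was not counted, so the 17 are not set apart from a background. Without that library 7 of the 25 were lower and 2 higher, against 7.59% lower and 9.69% higher over all genes in the same fit, and the median was -0.35. The lower genes then were Rsad2 (-1.34, FDR 0.0132), Oas2 (-1.33, FDR 0.00327), Oas1a, Trim30a, Ifit1, Usp18 and Rtp4. The part of the foreign cell transcripts in these values was not tested.

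**Figure D5:**
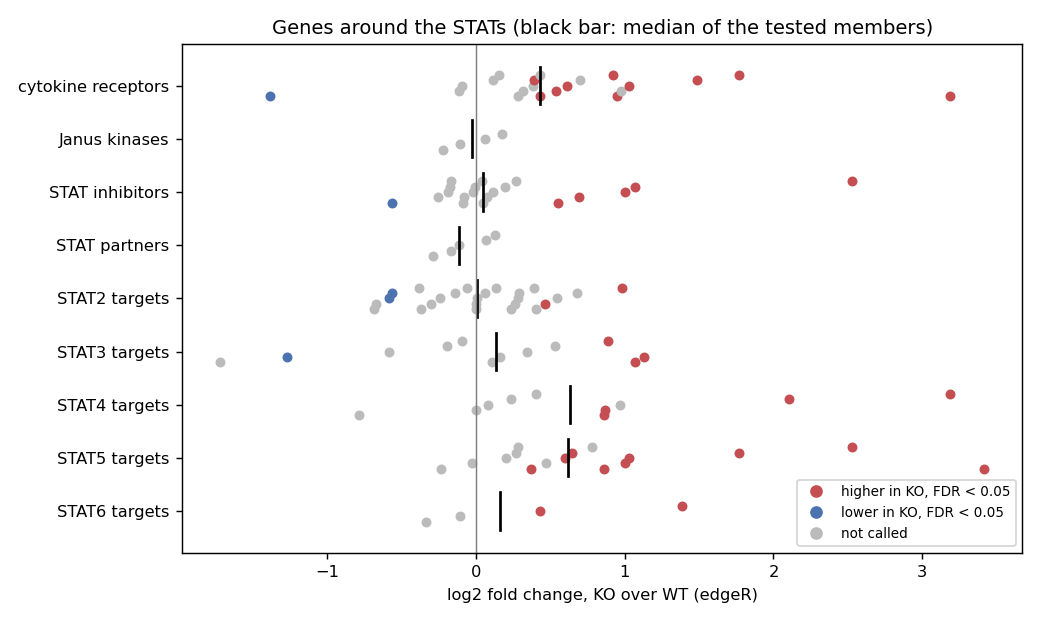
Log2 fold change of KO over WT (x axis) for the tested genes of each list, red where higher and blue where lower at an FDR below 0.05 and grey where not called, with a black bar at the list's median. Cytokine receptors, STAT4 targets and STAT5 targets have medians of 0.43, 0.63 and 0.62, whereas those of the Janus kinases, partners and STAT2 targets are -0.02, -0.11 and 0.01.

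Each STAT gene was also set beside the listed gene whose log2 CPM ran most closely with it over the 6 libraries, out of 109 candidates. The closest were Rsad2 for Stat2 (Pearson r = 0.988), Ptpn1 for Stat3 (0.983), Il6ra for Stat4 (0.955), Ifnar1 for Stat5a (0.944), Usp18 for Stat6 (0.938) and Pias1 for Stat5b (0.934). The points share their libraries and fall into the same WT and KO groups, so that these values describe the pattern and carry no test.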

How the data were processed

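RNA-seq was made from splenic Treg cells of 3 WT and 3 KO mice, with 1 library per mouse. Per the study's methods, single-end reads of 51 bases were aligned to mm10 with HISAT and counted per gene without strand by featureCounts. The matrix that the authors deposited holds raw counts (whole numbers, not normalised), and all 6 sample columns were used. Values of certain genes are not reported here. A floor of 3 counts was 0.123 to 0.227 CPM at depths of 13883069 to 24042994 counts. The test was that of edgeR 4.0.16 (R 4.3.3) on genes that exceeded 1 CPM in 3 or more libraries (TMM, quasi-likelihood F test, Benjamini-Hochberg FDR over all 11658 genes, threshold 0.05). CPM values are TMM-normalised, and SE was the log2 fold change over the square root of F. Correlations used log2 of CPM plus 0.5, and the permutation test used the log2 ratio of raw counts with 0.5 added to each count. Gene positions, exon lengths and 3′ UTRs came from GENCODE vM21, and promoters and microRNAs from RefSeq. The test was checked on simulated counts with a single dispersion, smaller than that of the data, and changes larger than those of the STAT genes. That check does not cover the uneven spread of the KO libraries or the foreign transcripts of KO replicate 1.

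The members and lists were chosen with earlier results of these data known. Of each list, up to 3 genes called in each direction with the largest log2 fold change are named, and other names were added after their values were seen. Alternatives were other scalings, DESeq2 1.42.0, the likelihood ratio and exact tests, other filters, robust estimation, a replicate block, an FDR of 0.01, and each library left out. Samples that share a replicate number were checked for shared deviations.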

Additional observations from a re-analysis of the deposited data

How the results depend on the processing

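No STAT gene changed direction under any alternative run, whereas the median of the STAT2 targets went from 0.01 to -0.35 without KO replicate 1. Stat4 stayed lower and called in all 11 alternatives with 6 libraries (log2 fold change -0.75 to -0.67) and in all 6 with 1 library left out. Stat3 kept its direction but lost its call with library size alone (0.29), without the filter (0.34) and at an FDR of 0.01 (0.36), with 0.33 to 0.39 when 1 library was left out. Stat5a was called by DESeq2 (0.38) and by the likelihood ratio test, the exact test and robust estimation (0.39 each), with 0.28 to 0.43 when 1 library was left out, and Stat5b ranged from -0.42 to -0.21. The number of STAT genes higher was accordingly 2 with those 4 tools, 0 with library size alone, without the filter and at an FDR of 0.01, and 0 to 1 with 1 library left out, when 1 to 2 were lower. Over all genes 490 were higher and 196 lower at an FDR of 0.01, and 483 to 1403 were higher and 208 to 937 lower with 1 library left out, where fewer libraries enter the fit. The median of all genes was 0.02 under TMM, 0.0067 under RLE size factors and -0.06 under library size alone, which gave 1064 genes higher and 1201 lower. Socs1 also lost its call under RLE size factors (FDR 0.0511), library size alone (0.0878), filterByExpr (0.0504) and without the filter (0.0675). At an FDR of 0.01, 4 receptors, 1 STAT2 target, 2 STAT4 targets, 5 STAT5 targets and 1 STAT6 target were higher, and 0 inhibitors and 0 STAT2 targets lower. Without the filter 0 inhibitors and 1 STAT2 target were lower, and with library size alone or DESeq2 2 inhibitors were lower. With 1 library left out, the lists held 4 to 11 receptors, 1 to 2 STAT2 targets, 1 to 3 STAT3 targets, 2 to 5 STAT4 targets, 5 to 9 STAT5 targets and 1 to 2 STAT6 targets higher, and 0 to 2 inhibitors, 0 to 1 partners, 0 to 7 STAT2 targets and 1 to 2 STAT3 targets lower. Counting 8-base seed sites alone left 0 in Stat3 and 0 in Stat5a. Where not given, the cause of a change was not tested.

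Samples of the same replicate number were compared by their deviations, and whether they were handled together was not tested. The correlations of their deviations were 0.0804, -0.0056 and -0.195, and 1 of 6 libraries correlated best with its own number. With a replicate block Stat3 was at 0.36 without a call (FDR 0.0606), 0 STAT genes were higher, 0 inhibitors and 0 STAT2 targets were lower, and 545 genes were lower over all genes.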
